A study of Mus musculus with 3 samples.

Results

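The genes described here are those of the unfolded protein response and of the protein-folding machinery of the endoplasmic reticulum (ER), measured in CT26.WT cells. They were chosen by gene symbol, as all probe sets whose symbol in the platform annotation is exactly that of 1 of 35 listed genes. The annotation held 34 of the 35 symbols, on 78 probe sets, out of 18193 named genes on 34945 probe sets. Ero1l was the symbol not found, and the annotation carries that oxidase under its current symbol Ero1a. The cell line CT26.WT comes from a mouse colon carcinoma and was kept in medium with fetal bovine serum before the experiment. The study exposed it to either of 2 recombinant mouse proteins, S100a8 or S100a9, which are calcium-binding proteins that myeloid cells release during inflammation. Per the labels, cells were first held for 12 h without serum, and 4 µg/ml of S100a8 or of S100a9 was then present for another 24 h. The control culture was serum-free too, and its own labels name its vehicle differently, as bovine serum albumin in the title and as saline in the description, with no dose or time of its own. Total RNA of each of the 3 cultures was hybridised to 1 Affymetrix Mouse Genome 430 2.0 array.

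Proteins that enter the secretory pathway fold in the ER, helped by chaperones and by enzymes that form disulphide bonds and isomerise prolines. Unfolded protein is sensed by the membrane proteins IRE1 (gene Ern1), PERK (Eif2ak3) and ATF6 (Atf6). IRE1 splices the mRNA of the transcription factor Xbp1, PERK phosphorylates a translation initiation factor and so favours translation of Atf4, and ATF6 is cleaved to release a transcription factor. Together these raise chaperone genes and the genes of ER-associated degradation (ERAD), which moves misfolded protein to the proteasome. Splicing, phosphorylation and cleavage are not seen in the gene-level signals of these arrays, which report transcript abundance only.

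With 1 array per group there were no replicates, no test was possible, and every difference below is a log2 ratio between single arrays, given as a description. Signals are the deposited MAS5 intensities, and values under a floor of 76.0, the median of all signals, were set to that floor. A gene was represented by its brightest probe set and compared if the mean of that probe set lay above the floor. This left 11138 genes and 33 of the 34 genes of the set. The exception was Derl3, an ERAD channel gene with signals of 73.6 after S100a8, 71.2 after S100a9 and 77.8 in control cells. The median signals of the arrays were 78.6, 73.6 and 76.1 in the same order. The median log2 ratio over all compared genes was 0.01 for S100a8 and 0.00 for S100a9, both against control. Dim genes stood higher on the S100a8 array, with a median of 0.14 over the dimmest 25%, against −0.01 for the 6479 genes within the brightness range of the 33. The ratios of the 2 brightest probe sets, over 4948 genes with such a pair above the floor, differed by a median of 0.15 on the log2 scale for S100a8 and 0.12 for S100a9. Many of the ratios below are smaller than that, and most of the others are of that size or only somewhat larger. Genes were counted as apart from a log2 difference of 0.32, which is 25% up or 20% down.

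The colon origin was only thinly marked, since 8 of 12 listed colon epithelial genes, among them Cdh1, Krt8, Cdx1, Vil1 and Muc2, lay below the floor on all 3 arrays. Krt18 (1447 in the control) and Krt20 (326) were above it, as were the dim Epcam and Cdx2 (each 101). Of 6 measured plasma and B cell genes, chosen because plasma cells are rich in ER, 5 were below the floor on all arrays. The exception was Sdc1, with log2 ratios of 0.96 with S100a8 and 0.29 with S100a9. Summed signals of 8 macrophage and granulocyte genes were 1262 after S100a8, 1178 after S100a9 and 912 in control cells. Ptprc, Adgre1, Itgam and Tyrobp lay below the floor throughout. The 4 that were compared, Cd68, Csf1r, Lyz2 and Cd53, were all above control with both proteins, with medians of 0.47 and 0.49. Lyz2 (102 in the control) and Cd53 (135) were dim, and dim genes stood higher on the S100a8 array. Summed signals of 8 fibroblast genes were 10828, 11879 and 12067, with Lum and Thy1 below the floor. The 6 fibroblast genes that were compared had median log2 ratios of −0.49 with S100a8 and −0.17 with S100a9. Krt18 also stood lower in both treated cultures (−0.49 and −0.23). The part of these differences in the values below was not tested.

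The ER genes differed little between the cultures. In the S100a8 culture 21 of the 33 compared genes were below control and 12 above, and the median log2 ratio was −0.13. With S100a9 the counts were again 21 and 12, and the median was −0.07. Over all compared genes 47.5% were below control with S100a8 and 48.1% with S100a9, against 63.6% of the ER genes in each comparison. The 47.5% counts many dim genes, whose S100a8 ratios tended to be higher. A stricter floor (65th percentile) removed more of them, and 52.4% of genes were then below control with S100a8 and 47.4% with S100a9. The ER counts stayed at 21 of 33, so the S100a8 excess was smaller against this background. Both comparisons use the same control array, so they are not independent. In RNA of a whole culture, fewer cells of a kind and less RNA per cell cannot be told apart. In all, 17 of the 33 had their highest signal in the control, 10 with S100a9 and 6 with S100a8.

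With S100a8, 4 genes differed from control by at least 0.32, and all were lower, namely Ppp1r15a, Syvn1, Edem2 and Ern1. With S100a9 there were 3, namely Syvn1, Ppp1r15a and Xbp1, again all lower. Over all compared genes 8.01% were lower by that size with S100a8 and 9.48% higher, and among the ER genes 12.1% were lower and 0 of 33 higher. With S100a9 the shares of all genes were 5.04% lower and 3.23% higher, against 9.09% and 0 of 33. Among the 6479 genes as bright as the ER genes, 7.44% were lower and 3.29% higher with S100a8, and 4.37% lower and 2.10% higher with S100a9. The ER genes' shares rest on 4 and 3 genes and lie near these backgrounds. The number below control depended on scaling. For S100a8 it was 18 (54.5%) under quantile normalization, 27 (81.8%) under median centring and 31 (93.9%) under scaling to the poly-A spike-in controls, where 42.1%, 56.8% and 69.4% of all compared genes were below control. For S100a9 it was 19 (57.6%) under quantile normalization and under median centring, beside 41.6% and 36.9% of all genes. Poly-A scaling, which moves every gene by the same amount, put 33 of 33 below control with S100a9, and 95.9% of all genes.

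**Figure D1:**
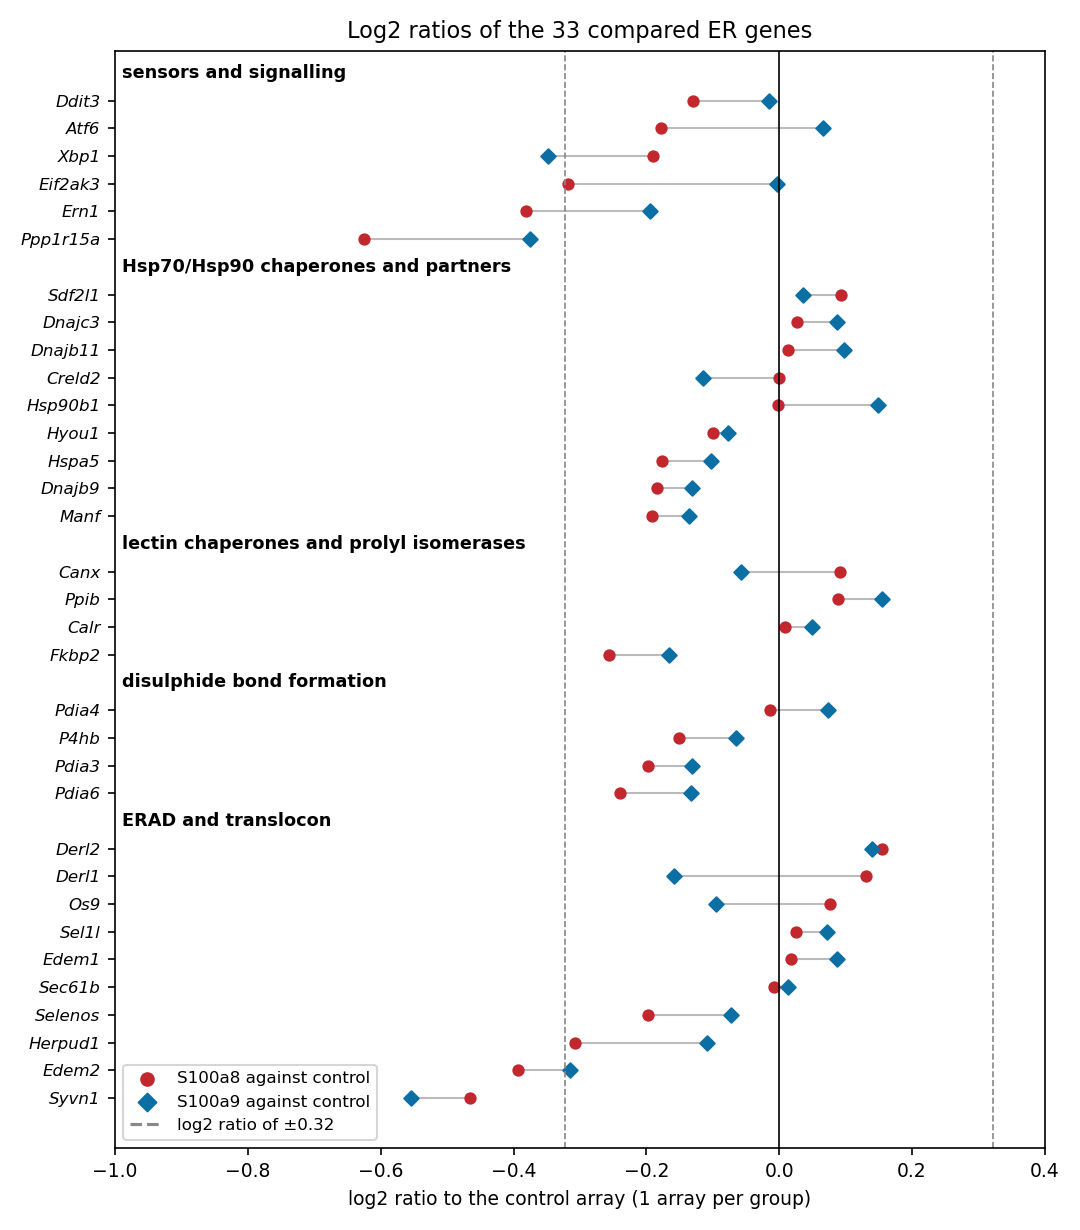
Log2 ratio to the control array of each of the 33 compared ER genes, by role, with S100a8 (circles) and S100a9 (diamonds), 1 array per group and dashed lines at ±0.32. The genes past the left line are Ppp1r15a, Syvn1, Edem2 and Ern1 with S100a8 and Syvn1, Ppp1r15a and Xbp1 with S100a9, and no gene passes the right line.

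The stress sensors and their signalling genes were mostly below control. All 6 were below control in the S100a8 culture (median −0.25), beside 47.5% of all compared genes, or 52.4% under the stricter floor. This held under each of the 11 alternative settings (medians from −0.37 to −0.16). Among these settings, the other floors and those without a floor or a filter left the median at −0.25. They could not move it, because all 6 genes lay far above the floor. Median centring and poly-A scaling, which gave the −0.37, lowered the S100a8 ratios of all genes alike. With them 56.8% and 69.4% of all compared genes were below control, so neither could bring any of the 6 above it. With S100a9 5 of 6 were below control, with a median of −0.11, but only 3 of 6 under median centring and under quantile normalization.

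Ppp1r15a, which encodes the phosphatase subunit GADD34 that ends the translation block set by PERK, had signals of 861 after S100a8, 1024 after S100a9 and 1328 in control cells. It was 1.54-fold lower with S100a8 (log2 ratio −0.63) and 1.30-fold lower with S100a9 (−0.37). Both treated cultures were below control, with S100a8 the lowest, and the S100a8 ratio was the lowest of the 33 genes. The array has 1 probe set for this gene, so no further probe set bears on it.

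Ern1, the sensor kinase and RNase IRE1, had 1862 after S100a8, 2118 after S100a9 and 2425 in control cells, which gave log2 ratios of −0.38 and −0.20. Its probe sets disagreed. A second, dim probe set was lower too (−0.36 and −0.41). Of 2 others, both dim, 1 was at 0.11 with S100a8 and −0.26 with S100a9, and the other at 0.15 and 0.25. With the mean of all probe sets the S100a8 ratio was −0.10.

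Xbp1, the transcription factor downstream of IRE1, had 1497 after S100a8, 1342 after S100a9 and 1708 in control cells. It was 1.27-fold lower with S100a9 (−0.35) and had a ratio of −0.19 with S100a8. All 3 of its probe sets above the floor were below control in both cultures, 1 of the others at −0.30 and −0.34 and the last at −0.35 and −0.27. All 3 thus lay on the same side of control, by differing amounts.

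Eif2ak3, the sensor kinase PERK, had 544 after S100a8, 677 after S100a9 and 679 in control cells. The S100a8 array stood below the other 2, which were nearly equal, and its log2 ratio of −0.318 fell just short of the size counted. Atf6, the remaining sensor, had 673, 797 and 761, with ratios of −0.18 for S100a8 and 0.07 for S100a9. Here S100a8 was again the lowest array. A further Atf6 probe set went the other way with S100a8, at 0.20.

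Ddit3, the stress-induced transcription factor CHOP, had 1610.4 after S100a8, 1742 after S100a9 and 1761 in control cells on its brightest probe set, with ratios of −0.13 and −0.02. Its second probe set gave much larger differences. There the signals were 359, 363 and 626, and the ratios −0.80 and −0.78. Both probe sets were below control, but only the dimmer of them by a large margin, so the size of the Ddit3 difference depends on which is read.

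**Figure D2:**
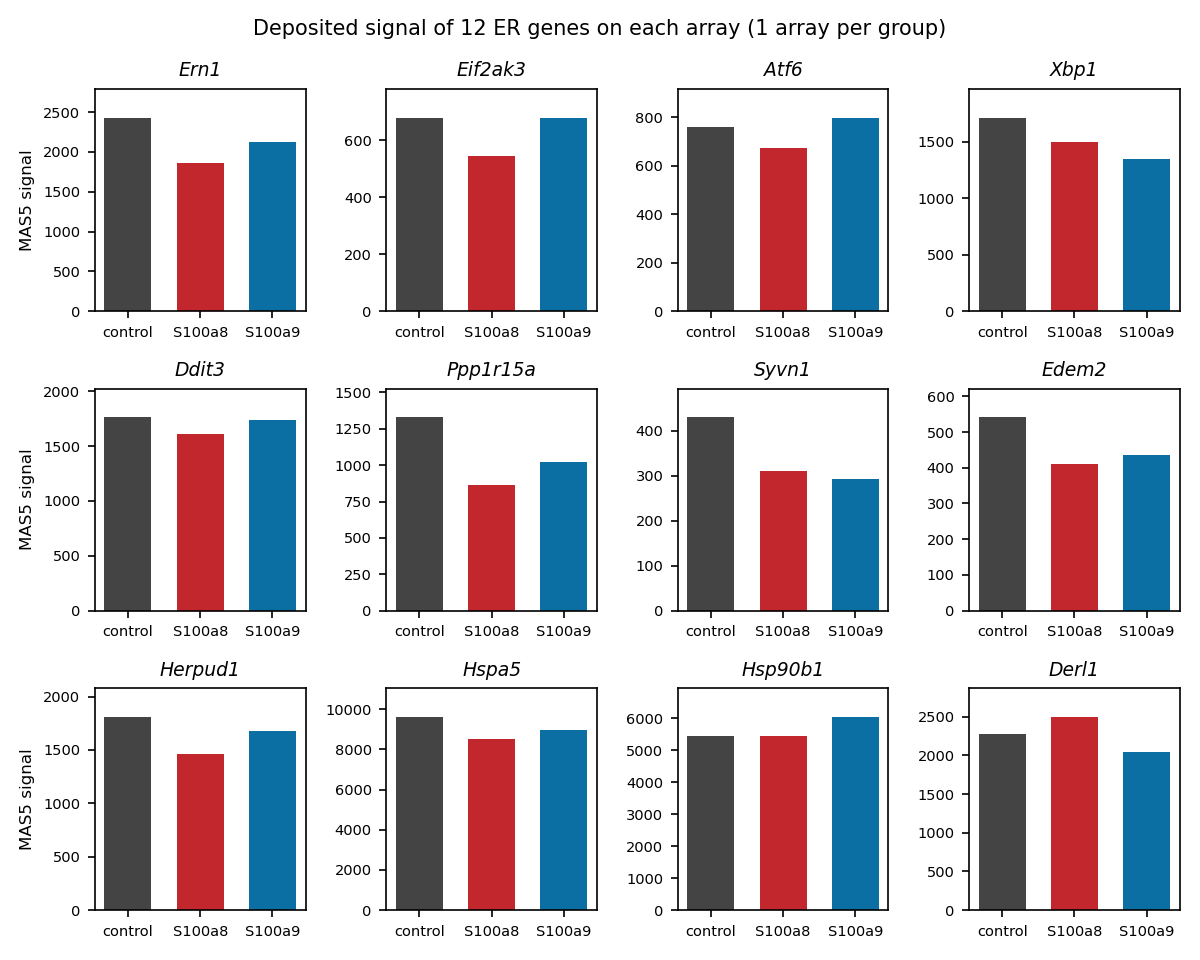
Deposited MAS5 signal of 12 ER genes on the control, S100a8 and S100a9 arrays, 1 bar per array with axes from 0 and no error bars because each group has 1 array. Ppp1r15a, Syvn1, Edem2 and Xbp1 are highest on the control array, Eif2ak3 is low only on the S100a8 array (544 against 677 and 679), and Derl1 is highest with S100a8.

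Chaperones of the Hsp70 and Hsp90 classes and their partners were close to control. Of 9 genes, 5 were below control with either protein, with medians of −0.00 for S100a8 and −0.08 for S100a9, and 0 were apart by 0.32. Counts moved with the scaling of all genes, and 4 of 9 were below control with S100a8 under quantile normalization (42.1% of all genes) and 8 of 9 under median centring (56.8%). Hspa5, the central ER chaperone BiP and the most used marker of ER stress, had 8508 after S100a8, 8956 after S100a9 and 9619 in control cells. Its log2 ratios were −0.18 and −0.10. Both treated arrays were slightly below control on this probe set. A second bright probe set (4169, 3901 and 4571) gave −0.13 and −0.23, and a dimmer probe set was at 0.37 with S100a8 and −0.18 with S100a9.

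Hsp90b1, the ER member of the Hsp90 family (GRP94), had 5444 after S100a8, 6046 after S100a9 and 5453 in control cells. The S100a9 array was the highest, at 0.15, but the second Hsp90b1 probe set was at −0.14 there. Manf, a secreted stress-induced factor, had 2299, 2390.2 and 2625, with ratios of −0.19 and −0.14. Dnajb9, a BiP cochaperone (ERdj4) induced by XBP1, had 990.2, 1026 and 1124, with ratios of −0.18 and −0.13. For Manf, Dnajb9 and the brightest Hspa5 probe set, the order was control, then S100a9, then S100a8. The further Hspa5 probe sets had other orders.

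The remaining genes of this role lay between −0.11 and 0.10 in both comparisons. They were Hyou1, an Hsp70-like chaperone that exchanges the nucleotide of BiP, the cochaperone genes Dnajb11 and Dnajc3, Sdf2l1, which acts with them, and Creld2, a stress-induced disulphide isomerase. Creld2 had 947 with S100a8 and 947 in the control against 875 with S100a9. Sdf2l1 had 402, 386 and 377 in the order S100a8, S100a9 and control. Both genes are strongly raised by ER stress in general, and neither was apart from control by 0.32 here. Dnajc3 had 5 probe sets above the floor, on both sides of control with S100a8 (from −0.39 to 0.10).

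Some of these genes share a promoter element of the ER stress response. The genes were listed for their roles in ER stress and folding, so how often the element occurs among them is not an independent finding. The ER stress element (ERSE) has the letters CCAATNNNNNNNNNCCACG and binds NF-Y at its first block and ATF6 or XBP1 at its last. Promoter windows from RefSeq (build GRCm38.p6), from 250 bases before to 50 after the annotated start, were found for 30 of the 34 genes. They were searched on both strands, and 9 of the 30 genes (30%) held an ERSE, against 39 of all 32851 windows (0.119%), which belong to 37 of 27025 genes (0.137%). ERSE-II (ATTGGNCCACG) stood in 2 of the 30 genes, Herpud1 and Dnajb11, and in 0.0365% of all windows. The UPRE (TGACGTGG), read by XBP1 and ATF6, and the CARE (TGATGCAAT), read by ATF4 and its partners, were in 0 of the 30, and in 0.676% and 0.192% of all windows. None of the 11 genes with a match held more than 1 kind of element, so no matches of different kinds overlapped. A match is a description of these letters and does not show a bound site, and a missing match says only that the letters are not in this window.

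The stretches that hold the elements are printed for the central chaperones, for the ERAD ligase gene Syvn1, which had the lowest ratio with S100a9, and for Herpud1, with the element in capitals and 20 bases on each side. Each runs from 5′ to 3′ on the strand of its gene and lies before the start. Capitals that begin with CGTGG mark an ERSE on the other strand.
Hspa5, chr2:34772005-34772063, plus strand: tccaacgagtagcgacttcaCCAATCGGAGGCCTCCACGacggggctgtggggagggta
Hsp90b1, far site, chr10:86705618-86705676, minus strand: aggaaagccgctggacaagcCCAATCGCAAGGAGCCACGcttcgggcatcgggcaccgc
Hsp90b1, near site, chr10:86705513-86705571, minus strand: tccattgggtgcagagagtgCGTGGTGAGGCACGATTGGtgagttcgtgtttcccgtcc
Calr, chr8:84847055-84847113, minus strand: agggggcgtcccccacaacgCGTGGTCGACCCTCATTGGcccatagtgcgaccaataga
Pdia6, chr12:17266471-17266529, plus strand: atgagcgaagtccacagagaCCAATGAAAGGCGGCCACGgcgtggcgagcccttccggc
Syvn1, chr19:6046512-6046570, plus strand: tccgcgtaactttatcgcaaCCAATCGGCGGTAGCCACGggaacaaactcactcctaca
Herpud1 (ERSE-II), chr8:94386357-94386407, plus strand: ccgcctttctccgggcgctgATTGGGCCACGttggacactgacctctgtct

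**Figure D3:**
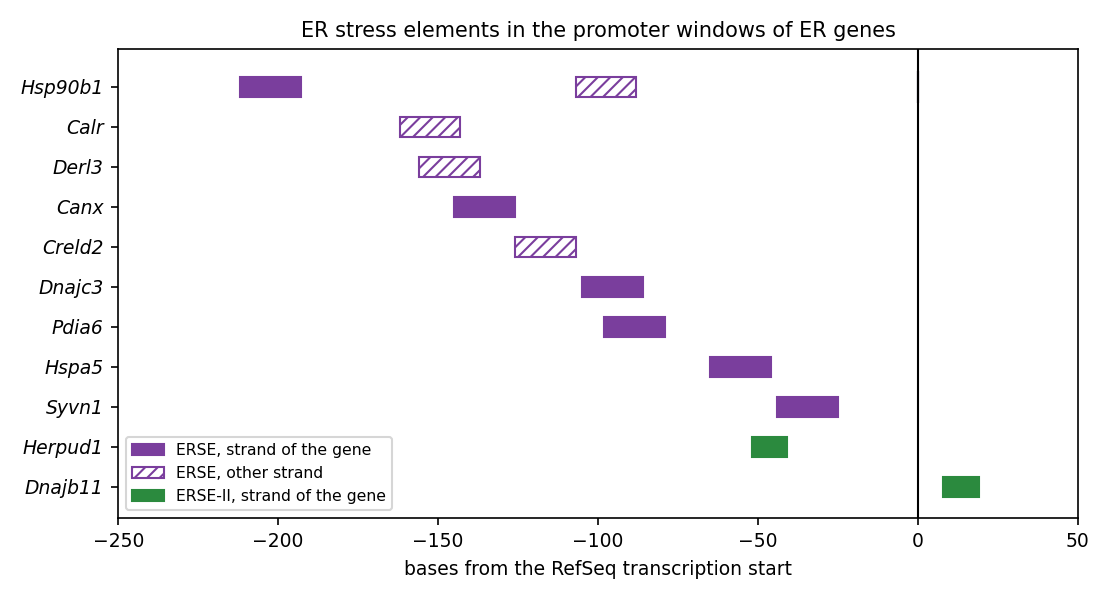
Position of each ERSE (purple) and ERSE-II (green) in the promoter windows of 11 ER genes, in bases from the RefSeq transcription start, filled where the element lies on the strand of the gene and hatched where it lies on the other. The ERSE matches span from base −212 (Hsp90b1) to base −26 (Syvn1), and the ERSE-II of Dnajb11 lies after the start.

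The genes that carry these elements did not share a direction. Of the 11 genes with an ERSE or ERSE-II, 10 were compared, and 5 were below and 5 above control with S100a8 (median log2 ratio −0.00). With S100a9 6 were below and 4 above (−0.08). The 19 genes with a window and neither element had medians of −0.15 and −0.06. Among the carriers, Syvn1 had the lowest ratio in both comparisons, while Canx (0.09) was the highest with S100a8 and Hsp90b1 (0.15) with S100a9. Carrying the letters of an ERSE thus went with ratios on both sides of control, but those above it were small. With S100a8 they reached at most 0.09, under the median probe set difference of 0.15. With S100a9 the second Hsp90b1 probe set was at −0.14.

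Lectin chaperones and prolyl isomerases were also near control. With S100a8 1 of 4 was below control (median 0.05) and with S100a9 2 of 4 (−0.00). Calr, the soluble lectin chaperone calreticulin, had 3948 after S100a8, 4063 after S100a9 and 3926 in control cells, and its log2 ratios on that probe set were 0.01 and 0.05. Canx, its membrane-bound counterpart calnexin, had 2999, 2703 and 2813, with ratios of 0.09 and −0.06. Ppib, the prolyl isomerase cyclophilin B, had 5984, 6261 and 5626, with ratios of 0.09 and 0.15, and its second probe set gave 0.14 and 0.15. It was the highest ratio of the 33 genes with S100a9, on a probe set where control was the lowest array. Fkbp2, a prolyl isomerase of the FK506-binding family, went the other way, with 1209.9, 1289 and 1445 and ratios of −0.26 and −0.17.

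Genes of disulphide bond formation were slightly below control as a role. With S100a8 4 of 4 were below (median −0.17) and with S100a9 3 of 4 (−0.10), and 0 were apart by 0.32. The S100a8 median ran from −0.29, under poly-A scaling, to −0.11 over the 11 alternatives. Under quantile normalization and under centring by brightness 3 of 4 were below control with S100a8, beside 42.1% and 49.9% of all compared genes. Pdia6, a disulphide isomerase that also binds BiP, had 1953 after S100a8, 2103 after S100a9 and 2306 in control cells, with ratios of −0.24 and −0.13. Pdia3 (ERp57), the isomerase that works with calnexin and calreticulin, had 3909, 4094 and 4482, with ratios of −0.20 and −0.13. P4hb, the isomerase PDI, was at −0.15 and −0.06, and Pdia4 at −0.01 and 0.07. For Pdia3, Pdia6 and P4hb control was the highest array and S100a8 the lowest. Ero1a, the oxidase that returns PDI to its oxidised form, lies outside the rule, which lists it by its older symbol Ero1l. Its brightest probe set by mean, with 2884, 2849 and 2311, stood above control at 0.32 (0.3199, just short of the size counted) and 0.30. Another was at 0.14 and 0.21 and the last at −0.01 and −0.10.

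ERAD genes were split, and they held the lowest ratio with S100a9. Of 10 compared genes of ERAD and the translocon, 5 were below control with S100a8 and 6 with S100a9, with medians of 0.00 and −0.08. The S100a8 count depended on the setting. It was 4 under quantile normalization (42.1% of all genes) and 7 under median centring (56.8%). With the mean of all probe sets it was also 7 (48.7%), with a median of −0.10. Syvn1, the ERAD ubiquitin ligase HRD1, had 311 after S100a8, 293 after S100a9 and 429.9 in control cells. It was 1.38-fold lower with S100a8 (log2 ratio −0.47) and 1.47-fold lower with S100a9 (−0.55). Its second probe set, with 271.5, 304 and 440.5, gave ratios of −0.70 and −0.54, a larger difference for S100a8 and a like one for S100a9. Both treated arrays were below control on both probe sets, and over 11 alternative settings the ratios ran from −0.58 to −0.42 with S100a8 and from −0.85 to −0.51 with S100a9.

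Edem2, which trims mannose from glycoproteins bound for degradation, had 412 after S100a8, 435 after S100a9 and 541 in control cells. Its log2 ratios were −0.39 and −0.32, the latter (−0.315) just short of the size counted. The second Edem2 probe set lay below the floor on all arrays. Edem1, of the same family, had 1022, 1073 and 1009.7 and ratios of 0.02 and 0.09, so this gene stayed near control on all 3 arrays.

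Herpud1, which organises the HRD1 complex and is induced by ER stress, had 1462 after S100a8, 1678 after S100a9 and 1809 in control cells. Its log2 ratios were −0.31 and −0.11, and those of its second probe set −0.32 and −0.16. Selenos, a selenoprotein that recruits the ATPase p97 to the complex, had 3088, 3369 and 3542, with ratios of −0.20 and −0.07 and 3 of 3 probe sets below control in both cultures. On the brightest probe sets of these genes S100a8 was the lowest array and S100a9 lay between it and control. On a further Selenos probe set (1325, 1270 and 1374) S100a9 was the lowest. Sel1l, the adaptor of HRD1, stayed at 0.03 and 0.07, with probe sets on both sides.

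The derlins form part of the channel for retrotranslocation, and their probe sets did not share a direction. Derl2 had 1154 after S100a8, 1141 after S100a9 and 1036 in control cells, with ratios of 0.16 and 0.14, the highest of the 33 genes with S100a8. A dim second Derl2 probe set was at −0.49 and −0.01. Derl1 had 2495, 2042 and 2278, so S100a8 was above and S100a9 below control on this probe set. Its other probe sets gave ratios of 0.16, 0.10 and −0.18 for S100a8 and of 0.22, 0.18 and −0.06 for S100a9. Os9, a lectin that delivers glycoproteins to HRD1, had 477, 424 and 452. Sec61b, a subunit of the translocon through which proteins enter the ER, had 5005, 5081 and 5034, and its ratios of −0.01 and 0.01 were among the smallest.

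Agreement between probe sets limited how many of these differences had a second reading. Of the 78 probe sets, 68 lay above the floor. With S100a8 43 of them were below control and 25 above, and with S100a9 45 were below and 23 above. With S100a8 10 (14.7%) were lower by at least 0.32 and 1 (1.47%) higher, against 10.8% and 9.27% of all named probe sets above the floor. With S100a9 7 (10.3%) were lower by that size and 0 higher, against 7.38% and 4.06%. In 19 genes there were at least 2 such probe sets. All were below control in 7 of these genes with S100a8 (Ddit3, Herpud1, Hsp90b1, Hyou1, Selenos, Syvn1 and Xbp1) and all above in 3 (Canx, Edem1 and Ppib), while 9 were mixed. The 2 Hsp90b1 values were −0.00 and −0.02, so they hardly differed from control. With S100a9 8 were all below, 3 all above and 8 mixed. Shares of all probe sets below control, and of all genes whose probe sets agree, were not computed for any comparison. Probe sets of a gene were read on the same arrays and are not replicates. Among the mixed genes, the further probe sets of Calr were at −0.03 and −0.05 with S100a8, that of Os9 at −0.15, and those of Sel1l ran from −0.14 to 0.25. Those of Canx were at 0.13 and −0.10 with S100a9. Ddit3, Herpud1, Hyou1, Selenos, Syvn1 and Xbp1 were below control on every such probe set in both comparisons.

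**Figure D4:**
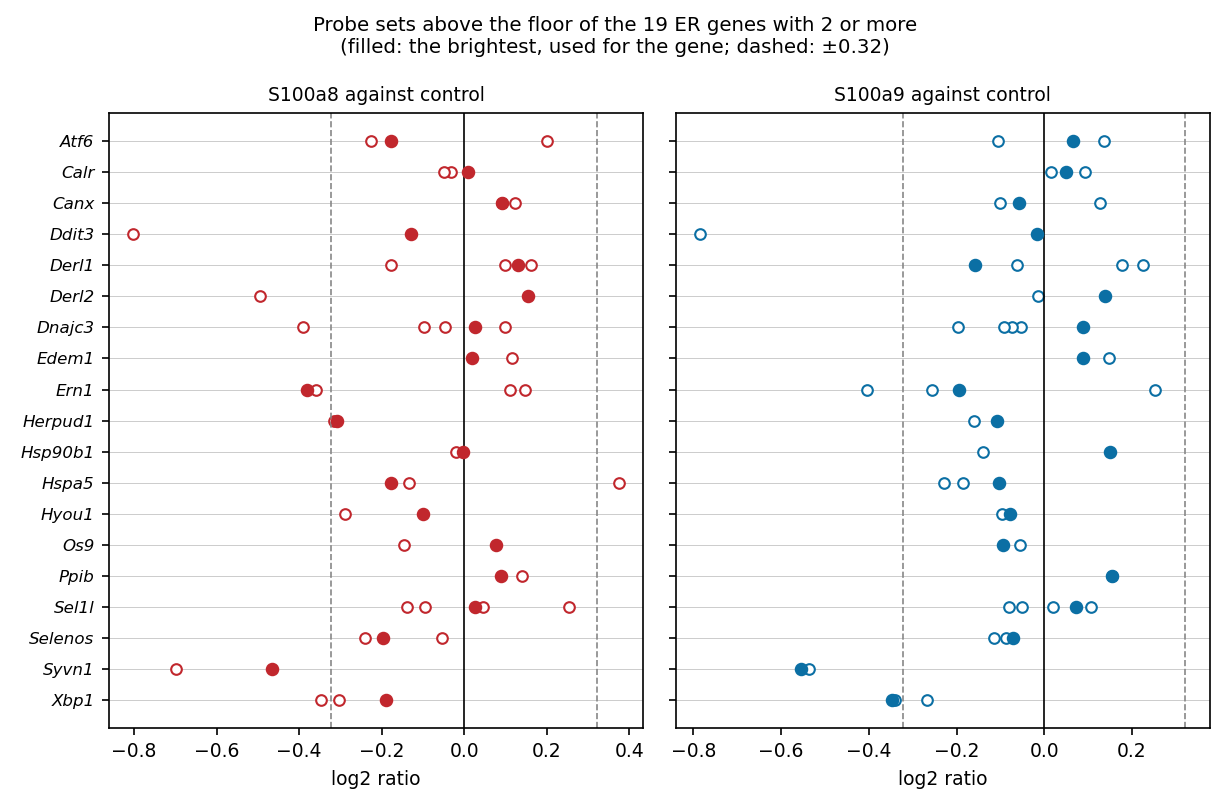
Log2 ratio to control of every probe set above the floor for the 19 ER genes with more than 1, for S100a8 (left) and S100a9 (right), filled for the brightest probe set and open for the others, with dashed lines at ±0.32. Syvn1 and Xbp1 lie left of 0 throughout, the dimmer Ddit3 probe set lies at −0.80 and −0.78, and 9 genes with S100a8 and 8 with S100a9 lie on both sides.

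Between the treated cultures, the ER genes were mostly higher with S100a9. Against S100a8, 25 of the 33 were higher and 8 lower, with a median log2 ratio of 0.07, against 45.1% lower over all compared genes and a median of 0.04 for genes of the same brightness. All compared genes include dim ones, and the dimmest 25% had a median of −0.12. With the floor at the 65th percentile 38.7% of all genes were lower. Centring by brightness took the ER median to 0.03, with 24 of the 33 higher. Of the 33, 0 were apart by 0.32 in either direction, and over all compared genes 7.82% were lower by that size and 2.00% higher (1.64% and 0.972% of the genes as bright as the ER genes). Eif2ak3 (0.315, just short of the size counted), Ppp1r15a (0.25) and Atf6 (0.24) had the highest ratios, and Derl1 (−0.29), Os9 (−0.17) and Xbp1 (−0.16) the lowest. The low values were not shared by all probe sets, since the other 3 of Derl1 were at 0.06, 0.08 and 0.11, the other of Os9 at 0.09 and 1 of Xbp1 at 0.08. Of the 19 genes with more than 1 probe set above the floor, 6 were higher with S100a9 on all, 0 lower on all and 13 mixed. Of the sensor and signalling genes, 5 of 6 were higher with S100a9 than with S100a8 (median 0.21), Xbp1 being the exception on its brightest probe set. With unambiguous probe sets first, 6 of 6 were higher. With the mean of all probe sets, or of those above the floor, 4 of 6 were higher (median 0.08). Under poly-A scaling it was also 4 of 6. Scaling to the poly-A spike-in controls subtracts 0.18 from every gene, which put 28 of the 33 below S100a8 (84.8%, median −0.11) and 88.4% of all compared genes (median −0.16). For the 6 sensor and signalling genes the median stayed above 0 under the 11 alternatives (0.03 to 0.31).

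**Figure D5:**
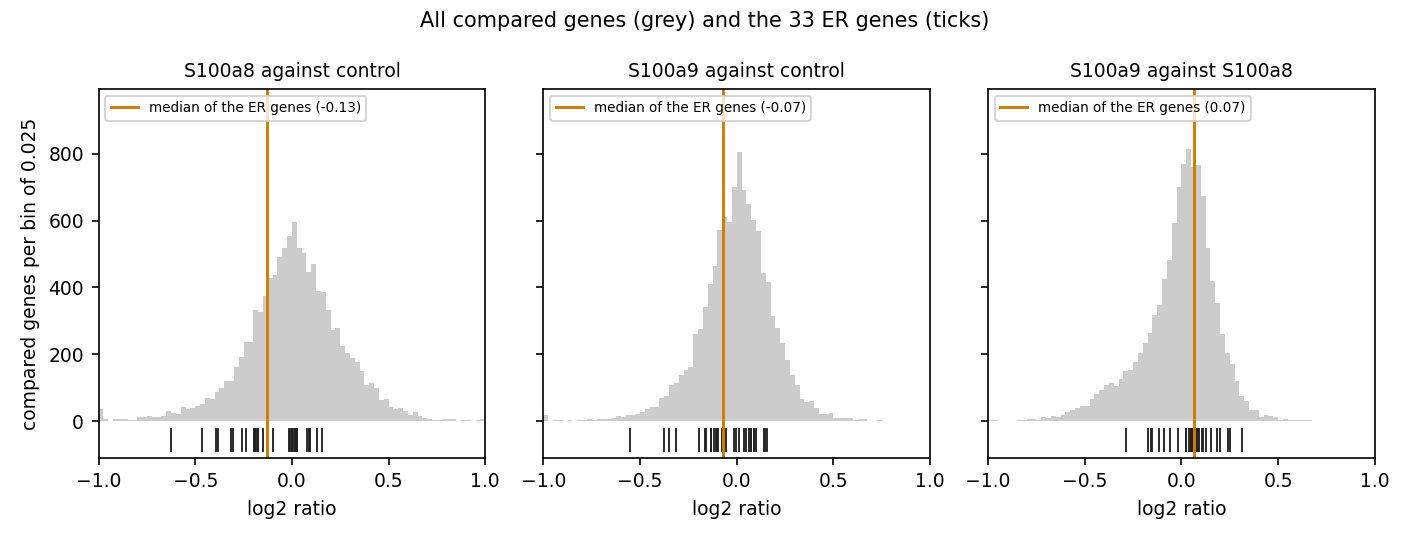
Number of compared genes by log2 ratio for the 3 comparisons (grey, bins of 0.025, values beyond 1 in the end bins), with a tick for each of the 33 ER genes and an orange line at their median. The medians of −0.13, −0.07 and 0.07 lie within the main body of all genes, and the lowest ticks are Ppp1r15a (−0.63) with S100a8 and Syvn1 (−0.55) with S100a9.

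Further genes of the same processes, 66 in all and listed with earlier results of these data known, included 60 that were compared. In the S100a8 culture 41 were below control (68.3%), with a median of −0.08, and 1 (1.67%) was lower by at least 0.32. In the S100a9 culture 32 were below (53.3%), with a median of −0.03, and 3 (5.00%) were lower by that size. Over all compared genes the latter shares were 8.01% and 5.04%.

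Among 11 further signalling genes, Creb3l2, a membrane-bound transcription factor related to ATF6, had the lowest ratio with S100a8, with signals of 169 after S100a8, 215 after S100a9 and 270.1 in control cells (−0.67 and −0.33). Chac1, a glutathione-degrading gene induced through ATF4, was at −0.31 and −0.36, and Atf4 itself had 5785, 6199 and 6776 (−0.23 and −0.13). Trib3, another target of that pathway, was at 0.15 and −0.07, and Atf6b, the paralogue of Atf6, was the highest at 0.19 and 0.22.

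Of 17 further folding enzymes, 13 were below control with S100a8 (median −0.08) and 9 with S100a9 (−0.00). Uggt1, which senses misfolded glycoproteins, was lowest with S100a8 (−0.28), and Ganab, a glucosidase subunit, was highest (0.37). With S100a9 the lowest was Qsox1, a sulphydryl oxidase (−0.33), and the highest Fkbp7, a prolyl isomerase (0.20). Of 15 further ERAD genes 10 were below control with S100a8 and 7 with S100a9. Ufd1, a cofactor of the ATPase p97, was lowest in both (−0.24 and −0.31), and the highest were Nploc4, its partner (0.15 with S100a8), and Faf2 (0.25 with S100a9). Of 17 genes of translocation and N-glycosylation, 10 and 8 were below control. Srprb, a subunit of the signal recognition particle receptor, was lowest with S100a8 (−0.28) and Sec61a1, the channel subunit, with S100a9 (−0.23), while Ssr2 (0.17) and Stt3b (0.16) were the highest in the same order.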

How the data were processed

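Samples were grouped by the agent in their labels, 1 array to a group. The values analysed are deposited intensities per probe set, linear and not logged. The submitters' processing notes name MAS5, whose version and scaling level were not given in the sources used here. MAS5 subtracts mismatch signal, so dim intensities are noisy, and scaling to a common level would hide changes in total RNA.

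Control probe sets were left out. The array's annotation, which may be outdated, gave 34945 probe sets 1 gene symbol and 932 several; the latter, and 9160 not listed, were not used. Values under the 50th percentile (76.0) were raised to it before log2. Each gene was represented by its brightest probe set by mean log2 intensity. Differences were counted from 0.32 on the log2 scale, with no test because groups had 1 array. Motifs were searched in RefSeq windows. Computations used Python 3.11.15 and pandas 2.3.3 and were tested on simulated data.

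Described in full were the signalling genes, genes past that size, the 3 highest and lowest ratios per comparison, genes with discordant probe sets, and the extremes of each further list; other genes are given by range or in brief. Members, lists and this rule were chosen with earlier results of these data known. Alternatives were median centring, quantile normalization, centring by brightness in 20 bins, a floor at the 30th or at the 65th percentile, log2(value + 1) without a floor, all genes whatever their brightness, the mean of all probe sets, unambiguous probe sets first and a 1.5-fold size. The mean of probe sets above the floor and scaling to 24 poly-A spike-in probe sets were added after the data were seen.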

Additional observations from a re-analysis of the deposited data

How the results depend on the processing

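Values with no test were counted as unmoved within 0.05 (medians) or 0.1 (genes) on the log2 scale, and counts within 1.5 times. The median of the ER genes stayed within that limit under 10 of 11 alternatives for S100a8 (−0.25 to −0.09), 10 of 11 for S100a9 (−0.37 to −0.02) and 9 of 11 for S100a9 against S100a8. The other floors, no floor and no filter could hardly move these medians or the gene values below. Each compared ER gene had a mean signal of at least 339.7, far above the floor. Scaling to the poly-A spike-ins, by each array's median deviation from the spike-in means, subtracted 0.12 (S100a8), 0.30 (S100a9) and 0.18 (S100a9 against S100a8) from every gene, which took the medians of all compared genes to −0.11, −0.30 and −0.16. The ER medians became −0.25, −0.37 and −0.11, with 8, 19 and 4 genes lower by at least 0.32, as 16.0%, 42.7% and 20.3% of all compared genes were. Median centring moved the median of S100a9 against S100a8 to 0.16, with 3 genes higher by at least 0.32; the median of all genes was then 0.11. At a 1.5-fold size 1 gene was lower with S100a8 and 0 with S100a9. The 7 gene values of at least 0.32 kept their direction in all 77 recomputed values, and 13 moved by more than 0.1, among them Ern1 with the mean of probe sets above the floor (−0.12), Edem2 (−0.20) and Xbp1 with S100a9 (−0.24) with the mean of all probe sets. No paired analysis was possible because each group holds 1 array, and for the same reason no replicate could be left out. The number of arrays limits the precision, probe sets of a gene often disagreed, and 33 of 34 genes were above the floor.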

Other observations

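The ERSE or ERSE-II letters also stood in the promoter windows of 38 genes outside the set, of which 12 were compared. Of these, 8 were below control with each protein, 2 by at least 0.32 with S100a8 and 3 with S100a9, with median log2 ratios of −0.13 and −0.05. Over all compared genes 47.5% and 48.1% were below control, and 8.01% and 5.04% by at least 0.32. The counts over 12 genes are too small to set apart from these shares. Pan2, a subunit of a poly(A) nuclease, had 245 after S100a8, 332 after S100a9 and 420.3 in control cells, and ratios of −0.78 and −0.34. Rbm39, an RNA-binding splicing factor, had 1829.6, 1943 and 2529.6, and ratios of −0.47 and −0.38. Lrif1, a nuclear receptor-interacting factor, was at −0.16 and −0.44. The carriers also included genes with a known place in the ER. Ero1b, the second ER oxidase, was at −0.11 and −0.08, Krtcap2, a subunit of the oligosaccharyltransferase, at 0.02 and 0.00, and Alg12, a mannosyltransferase of N-glycan assembly, at 0.05 and 0.08. These genes were named after their values were seen.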
